A study of Mus musculus with 9 samples.

Results

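The 9 genes Ccl2, Ccl3, Ccl4, Ccl5, Ccl6, Ccl7, Ccl8, Ccl9 and Ccl11 encode secreted CC chemokines. They were taken from the gene counts of whole knee joints by matching each Ensembl gene ID to its symbol on the GRCm38 build, which gave 9 of 53379 gene IDs. All 9 passed the filter on low counts and were among the 17478 genes tested. RNA sequencing was done on joints of male C57BL/6 mice in a surgical model of osteoarthritis, in which transection of the anterior cruciate ligament (ACLT) destabilises the knee. PC2 joints had ACLT at 8 weeks of age, and 1 week later received lentivirus expressing PC2 into the joint. Luc joints had the same operation and a control lentivirus expressing Luc on the same schedule. Both were collected 8 weeks after the injection. Non surgery joints were not operated on, and neither their age nor any injection was given in the sources used here. The PC2 and Luc joints therefore share the operation and an injection of virus, and differ in the gene that the virus carried. The promoter of the virus, the joint cells it reached and the number of mice per pool are not stated in the labels.

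Each group was 1 mixture of RNA sequenced as 3 technical repeats, so every SD, SE and p-value below measures the spread between libraries of a pool and holds no difference between mice. The 9 libraries held 17835989 to 19004316 counts in genes. Levels are in CPM, counts scaled to library size with TMM factors, given for replicates 1, 2 and 3 in this order or as mean ± SD (n = 3). Fold changes, their SE and their adjusted p come from the edgeR quasi-likelihood test over all 17478 genes, and "rose" and "fell" are used where the adjusted p was under 0.05. The 3 comparisons share libraries: Luc libraries enter both PC2 against Luc and Luc against Non surgery, and Non surgery libraries enter both comparisons with unoperated joints. Markers of the tissues of a knee were present in all 9 libraries. The summed level of 5 chondrocyte markers was 4692 to 4753 CPM in PC2, 2749 to 2833 CPM in Luc and 375 to 420 CPM in Non surgery libraries, and that of 10 skeletal muscle markers was 25782 to 25977, 22237 to 22662 and 57794 to 59186 CPM in the same order. The levels of these tissue markers thus differed between groups, and the part of tissue content in the chemokine levels was not tested. In whole tissue, fewer cells of a type and less RNA per cell cannot be told apart.

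Chemokines are small secreted proteins that bind glycosaminoglycans of the matrix and G protein-coupled receptors on leukocytes, and set up gradients along which those cells move. The CC family is named for a pair of neighbouring cysteines near the amino end. Ccl2, Ccl7 and Ccl8 are monocyte chemoattractant proteins. Ccl3 and Ccl4 are macrophage inflammatory proteins, and Ccl3 signals through Ccr1 among other receptors. Ccl5 attracts T cells and monocytes. Ccl6 and Ccl9 are rodent chemokines made mainly by myeloid cells. Ccl11 is eotaxin, the ligand of Ccr3 on eosinophils. In osteoarthritis, synovial fibroblasts, chondrocytes and macrophages are known sources of CC chemokines.

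All 9 genes lie on chromosome 11 in 2 clusters. The first spans 81.23 kb and holds 4 members on the plus strand, Ccl2 (82035571 to 82037453), Ccl7 (82045712 to 82047525), Ccl11 (82057823 to 82062955) and Ccl8 (82115185 to 82116799). After a gap of 1409 kb, the second spans 138.9 kb and holds Ccl5 (83525778 to 83530518), Ccl9 (83572919 to 83578636), Ccl6 (83587882 to 83593087) and Ccl3 (83647844 to 83649355) on the minus strand and Ccl4 (83662584 to 83664683) on the plus strand. No exon base of any member is shared with another annotated gene. No stretch of 50 bases of their transcripts occurs in an annotated transcript of another gene, except for 1.97% of those in Ccl9. None of the shared stretches was in a CC chemokine. Among annotated transcripts, reads of at least 50 bases from the members could therefore be assigned to a single gene, apart from those stretches of Ccl9. Introns and unannotated sequence were not searched.

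The promoters of 4 genes are shown, those of the members that the RefSeq promoter table holds. Among these, Ccl8 had the largest difference of the 9 genes between Luc and Non surgery libraries, Ccl3 was higher in PC2 libraries, and Ccl6 and Ccl9 are neighbours that are both abundant but differ in how they moved. The table (GRCm38.p6) gives 300 bases around each gene's start, most of them upstream, and matched 4 of the 9 members. Capitals mark matches to 5 motifs, chosen with the data already known: GGG and CC with 5 bases between them (NF-kB type), TGANTCA (AP-1 type), TTCNNNGAA (STAT type) and GAGGAA (PU.1 type), each on either strand, and, on the gene's strand alone, the core promoter letters TATAAA.
Ccl8 (chr11:82114935-82115234, plus strand): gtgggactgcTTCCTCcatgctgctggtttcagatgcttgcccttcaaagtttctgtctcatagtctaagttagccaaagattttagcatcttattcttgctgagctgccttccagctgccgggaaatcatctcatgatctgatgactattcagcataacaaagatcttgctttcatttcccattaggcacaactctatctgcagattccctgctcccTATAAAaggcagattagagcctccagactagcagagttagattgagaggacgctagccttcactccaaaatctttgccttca
Ccl3 (chr11:83649329-83649628, minus strand): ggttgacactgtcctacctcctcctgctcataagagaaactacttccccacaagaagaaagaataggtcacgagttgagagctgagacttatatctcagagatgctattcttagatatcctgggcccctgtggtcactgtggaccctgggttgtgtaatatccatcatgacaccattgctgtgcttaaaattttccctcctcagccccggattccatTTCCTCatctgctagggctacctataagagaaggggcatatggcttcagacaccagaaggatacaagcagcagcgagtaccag
Ccl6 (chr11:83593038-83593337, minus strand): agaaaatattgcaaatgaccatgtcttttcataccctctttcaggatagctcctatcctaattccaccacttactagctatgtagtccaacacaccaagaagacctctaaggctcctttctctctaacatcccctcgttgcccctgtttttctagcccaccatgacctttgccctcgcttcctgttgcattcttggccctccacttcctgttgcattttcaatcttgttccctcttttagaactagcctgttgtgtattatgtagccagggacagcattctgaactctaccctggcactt
Ccl9 (chr11:83578587-83578886, minus strand): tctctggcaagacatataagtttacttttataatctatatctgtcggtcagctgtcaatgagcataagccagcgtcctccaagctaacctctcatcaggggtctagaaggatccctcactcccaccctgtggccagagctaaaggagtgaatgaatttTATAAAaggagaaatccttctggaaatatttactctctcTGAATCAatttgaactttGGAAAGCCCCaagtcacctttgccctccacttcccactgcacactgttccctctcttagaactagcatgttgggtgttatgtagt
Ccl8 held a TATAAA match 32 bases upstream of its start and a PU.1-type match 240 bases upstream. Ccl3 held a PU.1-type match 33 bases upstream of the start on which its window is placed. That start lies upstream of the annotated gene start at 83649355, so the match is farther from the latter. Ccl9 held a TATAAA match 92 bases upstream, an AP-1-type match 53 bases upstream and an NF-kB-type match 35 bases upstream, and Ccl6 held none of the 5 motifs. No match overlapped another. Among all 32851 promoters of the table, 8.319% hold TATAAA, 28.28% the PU.1-type, 7.808% the AP-1-type, 50.79% the NF-kB-type and 8.298% the STAT-type letters, and a match describes only letters in this window. The neighbours Ccl6 and Ccl9 were the most alike of the pairs, with 41 of 60 identical bases in their best ungapped window (68.3%), against 28 to 30 of 60 in the other pairs.

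Levels differed widely among the 9 genes, and were compared with each other only per length, as CPM per kilobase of the longest protein-coding transcript. Ccl6 stood first in each group, at 79.1 ± 2.86 in PC2, 128.8 ± 4.75 in Luc and 99.6 ± 2.18 in Non surgery libraries, which was 57.3%, 60.3% and 66.4% of the summed per-length level of the 9 genes. In PC2 libraries Ccl9 came next (15.8), then Ccl5 (10.2), Ccl8 (8.00) and Ccl3 (6.64), then Ccl11 (5.02), Ccl7 (4.97) and Ccl4 (4.51), and Ccl2 last (3.93). Neighbours within the trio Ccl5, Ccl8 and Ccl3 overlapped between libraries, as did neighbours within the trio Ccl11, Ccl7 and Ccl4. In Luc libraries Ccl8 was second (25.6), above Ccl9 (16.5) and Ccl5 (14.0), which overlapped. Ccl7 (10.2), Ccl2 (7.40), Ccl11 (4.76) and Ccl3 (4.02), the last pair overlapping, came before Ccl4 (2.27). In Non surgery libraries the order was Ccl9 (19.0), Ccl5 (14.3), Ccl11 (7.44), then Ccl3 (2.60), Ccl8 (2.41) and Ccl4 (2.27), whose neighbours overlapped, and Ccl2 (1.39) and Ccl7 (1.03) at the end. With the union of all exons as the length, Ccl5 took a lower place in PC2 and Luc libraries, and Ccl2 and Ccl7 changed places in Non surgery libraries.

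**Figure D1:**
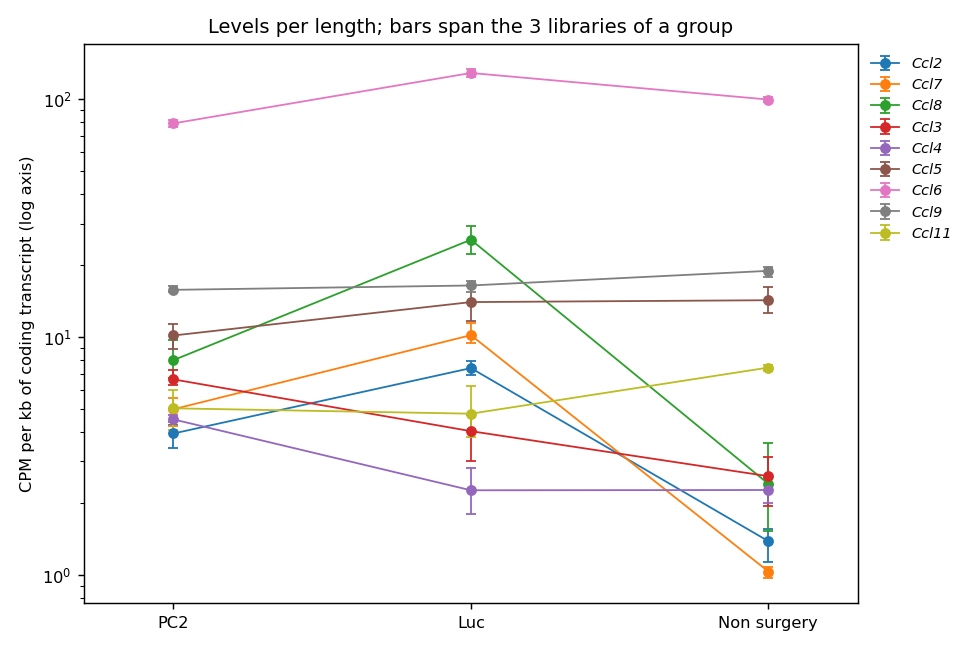
Level of each CC chemokine gene in CPM per kilobase of the coding transcript (log10 axis) in PC2, Luc and Non surgery libraries, with the mean as a point, bars that span the 3 libraries and lines that join the groups of a gene. Ccl6 lies above the other 8 genes in each group, and Ccl8 stands second in Luc libraries at 25.6 but at 8.00 in PC2 and 2.41 in Non surgery libraries.

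The summed per-length level of all 9 genes was 138.1 ± 5.62 in PC2, 213.6 ± 11.1 in Luc and 150.0 ± 1.33 in Non surgery libraries. The monocyte chemoattractants Ccl2, Ccl7 and Ccl8 gave 12.2% of it in PC2, 20.3% in Luc and 3.22% in Non surgery libraries. Ccl3 with Ccl4 gave 8.07%, 2.94% and 3.25%, and Ccl6 with Ccl9 gave 68.7%, 68.1% and 79.1%, in the same order of groups.

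Across the family, PC2 libraries differed from Luc libraries in 7 of 9 genes, with 2 that rose and 5 that fell, where 34.7% of all tested genes passed (16.1% higher and 18.6% lower). Their median log2 fold change was -0.47, against 0.008 over all genes tested. Ccl7 and Ccl8, 2 of the 9 genes, also differed at least 2-fold, both lower, where 3.31% of all genes did. Luc libraries differed from Non surgery libraries in 7 of 9 genes, with 5 that rose and 2 that fell, where 58.8% of all tested genes passed (31.1% higher and 27.7% lower). The median was 0.37, against 0.025 over all genes, and 3 of the 9 differed at least 2-fold, all higher, where 15.7% of all genes did. PC2 libraries differed from Non surgery libraries in all 9 genes, with 5 that rose and 4 that fell, where 62.7% of all tested genes passed (31.5% higher and 31.2% lower). The median was 0.98, against 0.010 over all genes, and 4 of the 9 differed at least 2-fold, all higher, where 16.4% of all genes did. Libraries of the groups compared did not overlap in 7 of 9 genes for PC2 against Luc, where this held for 48.0% of all genes, in 6 of 9 for Luc against Non surgery (62.9%) and in 9 of 9 for PC2 against Non surgery (66.0%). Calls by adjusted p alone were thus common over all genes, and sizes are given with each result. The same shares of all genes apply to the counts within gene lists below. Without TMM factors, scaling by library size alone put the median of all genes at 0.185 for Luc against Non surgery and at 0.168 for PC2 against Non surgery. It called 7754 genes higher and 3304 lower in Luc against Non surgery libraries, where TMM scaling called 5431 and 4848, and 7607 and 3761 in PC2 against Non surgery libraries, where TMM scaling called 5505 and 5447. Small falls against Non surgery libraries therefore depend on the scale.

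**Figure D2:**
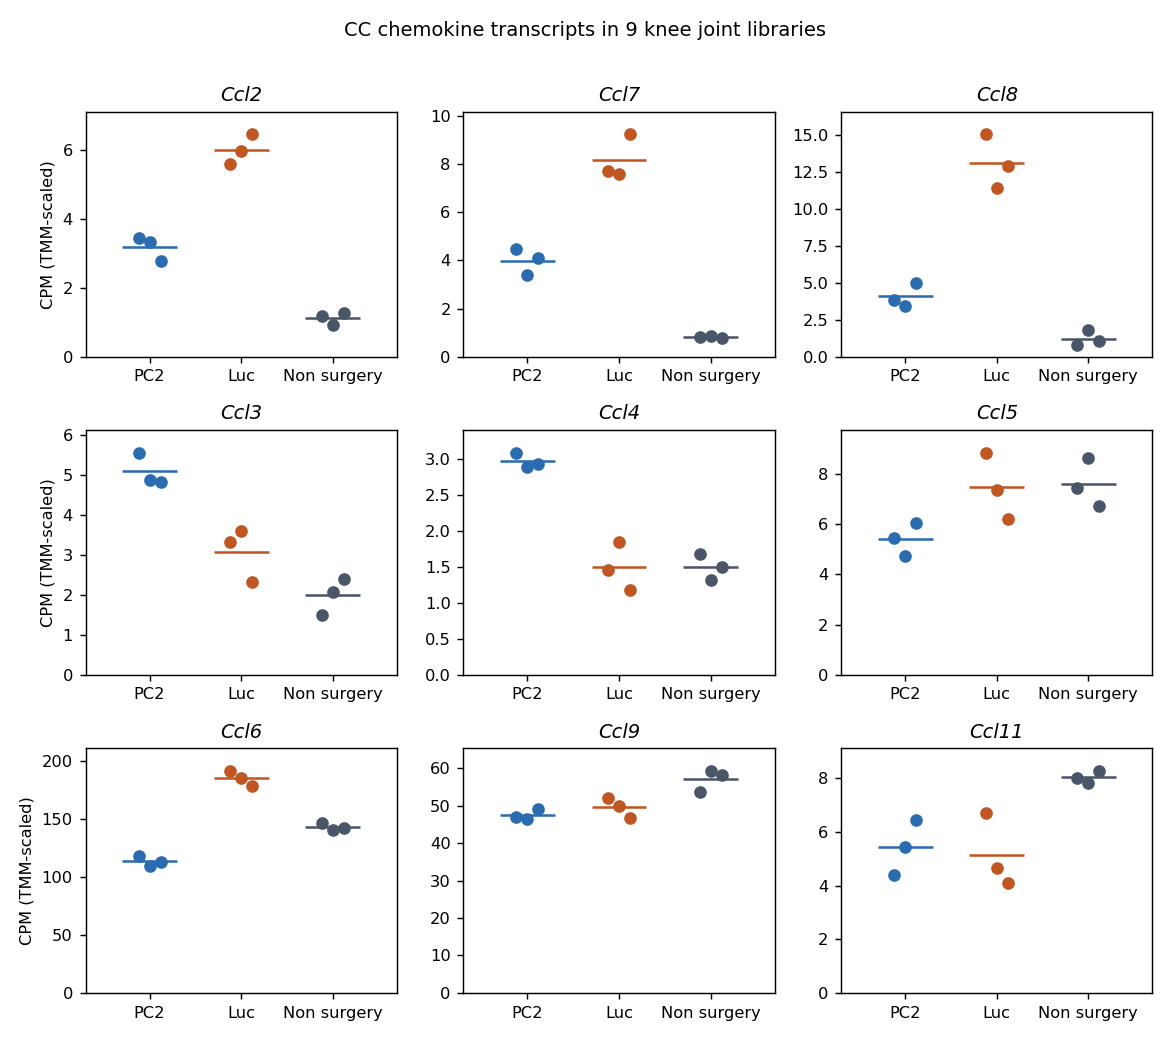
CPM of each of the 9 genes in each library (points) with the mean of 3 libraries (bar), for PC2, Luc and Non surgery, each panel with its own axis from 0. Ccl2, Ccl7 and Ccl8 are highest in Luc libraries, at 6.02, 8.16 and 13.1 CPM on average, while Ccl3 and Ccl4 are highest in PC2 libraries, at 5.08 and 2.97 CPM.

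The monocyte chemoattractants Ccl2, Ccl7 and Ccl8 were the most increased of the 9 genes in operated Luc joints and were lower in PC2 than in Luc joints, though still above Non surgery. Ccl8, which in mice signals through Ccr8, was at 3.82, 3.45 and 4.98 CPM in PC2 libraries, at 15.0, 11.4 and 12.9 CPM in Luc libraries and at 0.779, 1.84 and 1.08 CPM in Non surgery libraries. The 3 groups did not overlap, with each Luc library above each PC2 library and each PC2 library above each Non surgery library. Ccl8 fell 3.21-fold in PC2 against Luc libraries (log2 fold change -1.68 ± 0.17 SE, adjusted p = 1.04e-06), and 0.727% of all genes tested had a lower log2 fold change. It rose 10.5-fold in Luc against Non surgery libraries (log2 3.39 ± 0.21, adjusted p = 5.16e-10), and 3.28-fold in PC2 against Non surgery libraries (log2 1.71 ± 0.25, adjusted p = 1.83e-05). Counts of Ccl8 were 68 to 95 in PC2, 216 to 289 in Luc and 13 to 32 in Non surgery libraries, so the lowest level is the least precise.

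Ccl7, which attracts monocytes through Ccr2 among other receptors, followed the same order. It was at 4.45, 3.40 and 4.09 CPM in PC2 libraries, at 7.69, 7.56 and 9.21 CPM in Luc libraries and at 0.839, 0.863 and 0.781 CPM in Non surgery libraries, again with no overlap between groups. It fell 2.05-fold in PC2 against Luc libraries (log2 -1.03 ± 0.14, adjusted p = 2.28e-05). It rose 9.77-fold in Luc against Non surgery libraries (log2 3.29 ± 0.19, adjusted p = 1.3e-10) and 4.77-fold in PC2 against Non surgery libraries (log2 2.25 ± 0.21, adjusted p = 7.04e-08).

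Ccl2, the main ligand of Ccr2 on inflammatory monocytes, was at 3.46, 3.35 and 2.78 CPM in PC2 libraries, at 5.61, 5.97 and 6.47 CPM in Luc libraries and at 1.20, 0.92 and 1.26 CPM in Non surgery libraries. The groups did not overlap. Ccl2 fell 1.88-fold in PC2 against Luc libraries (log2 -0.91 ± 0.15, adjusted p = 0.000179). It rose 5.32-fold in Luc against Non surgery libraries (log2 2.41 ± 0.18, adjusted p = 6.2e-09) and 2.83-fold in PC2 against Non surgery libraries (log2 1.50 ± 0.20, adjusted p = 5.9e-06).

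**Figure D3:**
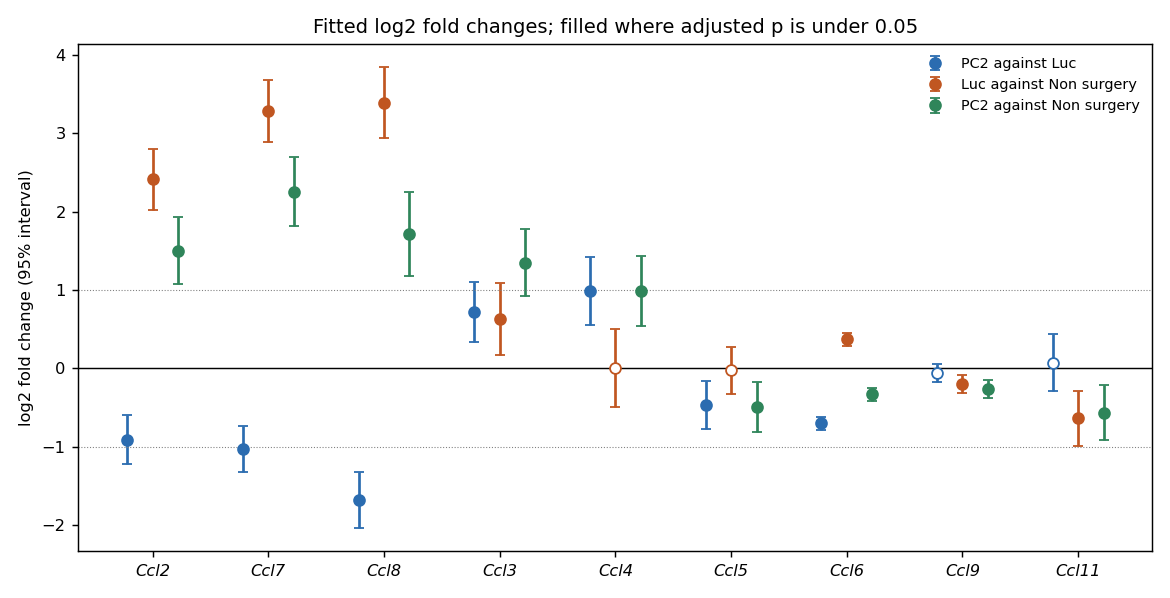
Fitted log2 fold change of each of the 9 genes with its 95% interval, for PC2 against Luc, Luc against Non surgery and PC2 against Non surgery, with filled points where the adjusted p was under 0.05 and dotted lines at 2-fold. Ccl2, Ccl7 and Ccl8 lie above 2 for Luc against Non surgery and below -0.9 for PC2 against Luc, and Ccl3 and Ccl4 lie above 0 for PC2 against Luc.

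Ccl3 and Ccl4, whose genes lie next to each other in the second cluster, stood higher in PC2 libraries than in Luc libraries, the opposite direction to Ccl2, Ccl7 and Ccl8. Ccl3 was at 5.55, 4.87 and 4.83 CPM in PC2 libraries, at 3.33, 3.59 and 2.32 CPM in Luc libraries and at 1.50, 2.07 and 2.40 CPM in Non surgery libraries. All PC2 libraries were above the others, while the lowest Luc library was below the highest Non surgery library. Ccl3 rose 1.65-fold in PC2 against Luc libraries (log2 0.72 ± 0.18, adjusted p = 0.00581) and 2.55-fold in PC2 against Non surgery libraries (log2 1.35 ± 0.20, adjusted p = 1.9e-05). Its rise of 1.55-fold in Luc against Non surgery libraries (log2 0.63 ± 0.21, adjusted p = 0.0193) was not past the threshold with DESeq2 (adjusted p = 0.0549), without Luc replicate 1 (0.0608), without Luc replicate 2 (0.0883) or without Non surgery replicate 1 (0.0930). Over all alternatives its adjusted p ranged between 0.0043 and 0.0930.

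Ccl4 was at 3.09, 2.89 and 2.94 CPM in PC2 libraries, at 1.46, 1.85 and 1.19 CPM in Luc libraries and at 1.68, 1.32 and 1.50 CPM in Non surgery libraries. PC2 libraries stood apart, and Luc and Non surgery libraries overlapped. Ccl4 rose 1.98-fold in PC2 against Luc libraries (log2 0.99 ± 0.21, adjusted p = 0.00143) and 1.98-fold in PC2 against Non surgery libraries (log2 0.98 ± 0.21, adjusted p = 0.000659). Between Luc and Non surgery libraries its log2 fold change was -0.001 with a 95% interval of -0.50 to 0.50 (adjusted p = 0.998), which leaves room for changes of up to 1.41-fold either way. In PC2 against Luc libraries 98.3% of all genes tested had a lower log2 fold change than Ccl4.

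Ccl5, a ligand of Ccr1 and Ccr3 among other receptors, was lower in PC2 libraries than in both other groups. It was at 5.45, 4.72 and 6.03 CPM in PC2 libraries, at 8.84, 7.35 and 6.20 CPM in Luc libraries and at 7.43, 8.63 and 6.73 CPM in Non surgery libraries. The PC2 libraries lay below all others, though the highest PC2 library was close to the lowest Luc library, and Luc and Non surgery libraries overlapped. Ccl5 fell 1.38-fold in PC2 against Luc libraries (log2 -0.47 ± 0.15, adjusted p = 0.0206). The fall was not past the threshold without Luc replicate 1 (log2 -0.33, adjusted p = 0.124), without PC2 replicate 1 (-0.47, adjusted p = 0.0504) or without PC2 replicate 2 (-0.38, adjusted p = 0.0963), and over all alternatives the adjusted p ranged between 0.00355 and 0.124. Against Non surgery libraries it fell 1.41-fold (log2 -0.49 ± 0.15, adjusted p = 0.00838), a call that scaling by library size only ended (log2 -0.34, adjusted p = 0.0552). Between Luc and Non surgery libraries the log2 fold change was -0.026 with a 95% interval of -0.33 to 0.28 (adjusted p = 0.889). The summed level of 8 T and NK cell markers was 52.6 to 56.0 CPM in PC2, 42.6 to 44.6 CPM in Luc and 78.5 to 80.7 CPM in Non surgery libraries, with 1 that rose and 3 that fell in PC2 against Luc libraries, and none of the 8 at 0 in all libraries. Cd4 and Nkg7 together made up most of this sum in Luc libraries (11.1 and 18.9 CPM) and in Non surgery libraries (34.2 and 29.2 CPM). The part of the T and NK cell markers in the level of Ccl5 was not tested.

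Ccl6 and Ccl9, both ligands of Ccr1, rested on the most counts of the 9 genes, with 2163 to 3695 and 866 to 1032 per library. Ccl6 was at 118, 110 and 113 CPM in PC2 libraries, at 192, 186 and 178 CPM in Luc libraries and at 147, 141 and 143 CPM in Non surgery libraries. Its 3 groups did not overlap, and Luc libraries were highest and PC2 libraries lowest. Ccl6 fell 1.63-fold in PC2 against Luc libraries (log2 -0.70 ± 0.04, adjusted p = 1.19e-09) and rose 1.29-fold in Luc against Non surgery libraries (log2 0.37 ± 0.04, adjusted p = 4.18e-07). In PC2 against Non surgery libraries it fell 1.26-fold (log2 -0.33 ± 0.04, adjusted p = 1.68e-06). With library size only the last difference was smaller (log2 -0.17, adjusted p = 0.000861).

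Ccl9 was at 46.8, 46.5 and 49.0 CPM in PC2 libraries, at 51.9, 49.9 and 46.7 CPM in Luc libraries and at 53.6, 59.3 and 58.2 CPM in Non surgery libraries. PC2 and Luc libraries overlapped, and both lay below Non surgery libraries. Its log2 fold change in PC2 against Luc libraries was -0.061 with a 95% interval of -0.17 to 0.05 (adjusted p = 0.405). It fell 1.15-fold in Luc against Non surgery libraries (log2 -0.20 ± 0.05, adjusted p = 0.00335) and 1.20-fold in PC2 against Non surgery libraries (log2 -0.27 ± 0.05, adjusted p = 0.000365). Scaling by library size only ended both calls (log2 -0.044, adjusted p = 0.490, and -0.11, adjusted p = 0.0906).

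Markers of cells known to make these ligands were measured beside them. The summed level of 12 monocyte and macrophage markers was 2781 to 2856 CPM in PC2, 2851 to 3004 CPM in Luc and 2422 to 2478 CPM in Non surgery libraries, with none of the 12 at 0 in all libraries. In PC2 against Luc libraries 0 of these rose and 7 fell (median log2 fold change -0.15). In Luc against Non surgery libraries 6 rose and 4 fell (median 0.15). In PC2 against Non surgery libraries 4 rose and 6 fell (median -0.16), though the sum was higher in PC2 libraries. Lyz2 alone was at 1964 CPM in Luc and 1482 CPM in Non surgery libraries on average, and made up most of the sum there. The summed level of 6 fibroblast markers was 22437 to 22696 CPM in PC2, 19765 to 20339 CPM in Luc and 4532 to 5013 CPM in Non surgery libraries. All 6 fibroblast markers rose in Luc against Non surgery libraries, with a median of 1.72, and in PC2 against Luc libraries 2 rose and 3 fell. The 6 immediate-early genes respond within minutes to stimulation of a cell. They summed to 1039 to 1061 CPM in PC2, 2183 to 2285 CPM in Luc and 140 to 156 CPM in Non surgery libraries. This sum had the same order of groups as Ccl2, Ccl7 and Ccl8. All 6 fell in PC2 against Luc libraries, with a median log2 fold change of -1.08. All 6 rose in Luc against Non surgery libraries, with a median of 3.88. In PC2 against Non surgery libraries 5 rose and 1 fell (median 2.89), so 1 gene did not share the order of the sum. The part of any of these in the chemokine levels was not tested.

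Ccl11, the eotaxin, was lower in both operated groups than in Non surgery libraries. It was at 4.40, 5.43 and 6.45 CPM in PC2 libraries, at 6.70, 4.65 and 4.10 CPM in Luc libraries and at 8.03, 7.82 and 8.29 CPM in Non surgery libraries. PC2 and Luc libraries overlapped and all 6 lay below the Non surgery libraries. Ccl11 fell 1.48-fold in PC2 against Non surgery libraries (log2 -0.57 ± 0.17, adjusted p = 0.00702) and 1.56-fold in Luc against Non surgery libraries (log2 -0.64 ± 0.17, adjusted p = 0.00357). In PC2 against Luc libraries its log2 fold change was 0.073 with a 95% interval of -0.30 to 0.44 (adjusted p = 0.784). Eosinophil transcripts did not share this order: the summed level of 4 eosinophil markers was 38.2 to 44.3 CPM in PC2, 864 to 946 CPM in Luc and 342 to 374 CPM in Non surgery libraries. All 4 fell in PC2 against Luc libraries, and none was at 0 in all libraries. Epx and Prg2, which encode the peroxidase and the major basic protein of eosinophil granules, were at 8.33 and 29.2 CPM in PC2, 288 and 594 CPM in Luc and 109 and 236 CPM in Non surgery libraries.

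**Figure D4:**
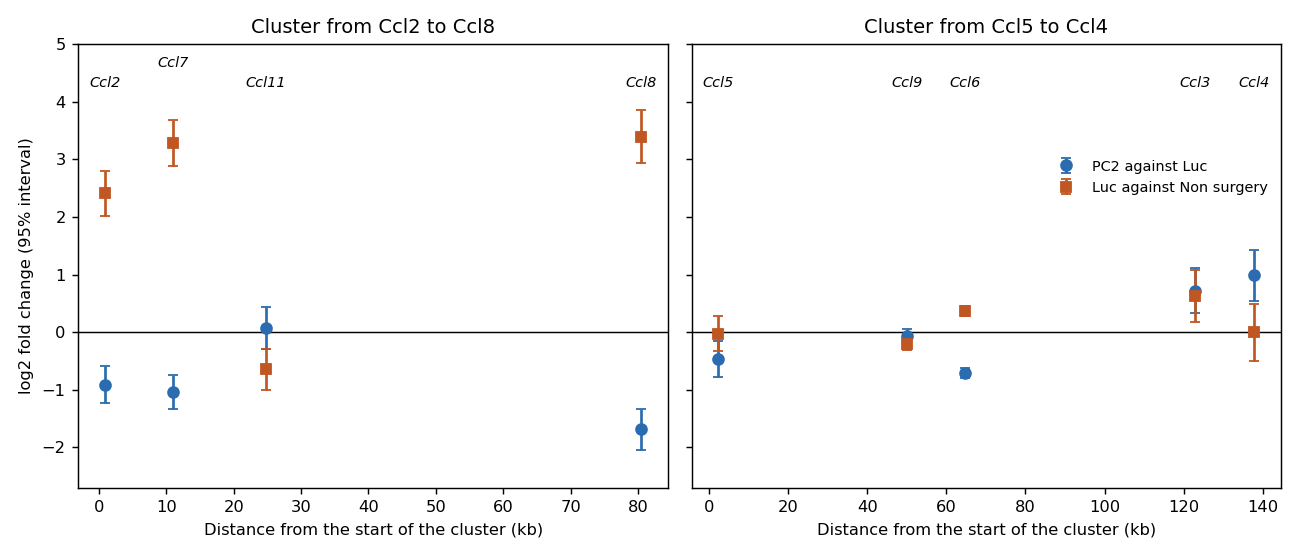
Log2 fold change of each gene with its 95% interval against its distance in kilobases from the start of its cluster on chromosome 11, with 1 panel per cluster, for PC2 against Luc (circles) and Luc against Non surgery (squares). In the first cluster Ccl2, Ccl7 and Ccl8 share a direction within each comparison while Ccl11 between them stands at -0.64 for Luc against Non surgery, and in the second cluster Ccl3 and Ccl4 lie above 0 for PC2 against Luc where Ccl5 and Ccl6 lie below 0 and the interval of Ccl9 spans 0.

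Position did not group all members by their change. Within the first cluster, Ccl11 lies between Ccl7 and Ccl8 and had fallen where both of these rose in Luc against Non surgery libraries. Within the second cluster, Ccl3 and Ccl4 rose in PC2 against Luc libraries, Ccl5 and Ccl6 fell, and Ccl9 passed in neither direction. Over the 9 libraries, the distance between the centred profiles (log2 of CPM plus 0.5) was smallest between Ccl5 and Ccl9 (0.584), and the neighbours Ccl3 and Ccl4 (0.874) and Ccl2 and Ccl7 (1.01) were each other's nearest members, while the nearest member to Ccl8 was Ccl7 (1.08). This distance is small for genes that change little, so it describes shape and size together. Among 12229 other genes with a mean of at least 5 CPM, those with the profiles closest to Ccl2 were Cd101 (0.297), Edil3 and Bnc2, and those closest to Ccl7 were Kcnj15 (0.442), Dusp1 and Antxr1. For Ccl8 they were Lrrc15 (0.884), Kcnj15 and Junb. Lgals9 (0.198), Ttc39b and Mctp2 were closest to Ccl6, and Nbas (0.0909), Mlst8 and Rab32 to Ccl9. Cbr2 (0.430), Rarres2 and Il11ra1 were closest to Ccl3, and Rpl21-ps8 (0.346), Slc25a10 and Ces1d to Ccl4. Cep83os (0.369), Nbea and Robo4 were closest to Ccl5, and Pcca (0.429), Cd3eap and Zfp623 to Ccl11.

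A list of CC chemokine receptors, not limited to those of the ligands above, was mostly lower in PC2 than in Luc libraries. Of the receptors that fell, Ccr1, Ccr2 and Ccr3 are described here as receptors of these ligands, while Ccrl2 and Ccr7 are not. Of 10 receptor genes examined, 8 passed the filter on low counts. In PC2 against Luc libraries 0 rose, 5 fell and 3 did not pass, with a median log2 fold change of -0.47. In Luc against Non surgery libraries 2 rose and 4 fell (median -0.33), and in PC2 against Non surgery libraries 1 rose and 5 fell (median -0.68). Of all tested genes, 34.7%, 58.8% and 62.7% passed in these 3 comparisons. Ccr3, the receptor of Ccl11 on eosinophils, was at 13.0 ± 0.37 CPM in PC2, 21.5 ± 0.23 CPM in Luc and 34.1 ± 1.66 CPM in Non surgery libraries. It fell in PC2 against Luc libraries (log2 -0.73, adjusted p = 3.44e-07) and in Luc against Non surgery libraries (log2 -0.66, adjusted p = 6.87e-08). Its order of groups thus differed from that of the eosinophil granule genes, which were highest in Luc libraries. Ccr1, the receptor of Ccl3, Ccl5, Ccl6 and Ccl9, and Ccr2, the receptor of Ccl2 and Ccl7, had the highest CPM of the list, and Ccr2 was chosen after its values were seen. Ccr1 was at 54.6 ± 1.67 CPM in PC2, 71.3 ± 1.27 CPM in Luc and 101.9 ± 5.46 CPM in Non surgery libraries, and fell in PC2 against Luc libraries (log2 -0.39, adjusted p = 6.89e-06) and in Luc against Non surgery libraries (log2 -0.51, adjusted p = 3.28e-08). Ccr2 was at 97.2 ± 6.19 CPM in PC2, 111.9 ± 1.66 CPM in Luc and 94.9 ± 12.5 CPM in Non surgery libraries. Its changes were small: it fell in PC2 against Luc libraries (log2 -0.20, adjusted p = 0.0343) and rose in Luc against Non surgery libraries (log2 0.24, adjusted p = 0.0085), where Ccl2 and Ccl7 differed by log2 -0.91 and -1.03, and by 2.41 and 3.29. Ccr8, the receptor of mouse Ccl8, had 1 to 4 counts per library and was not tested.

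**Figure D5:**
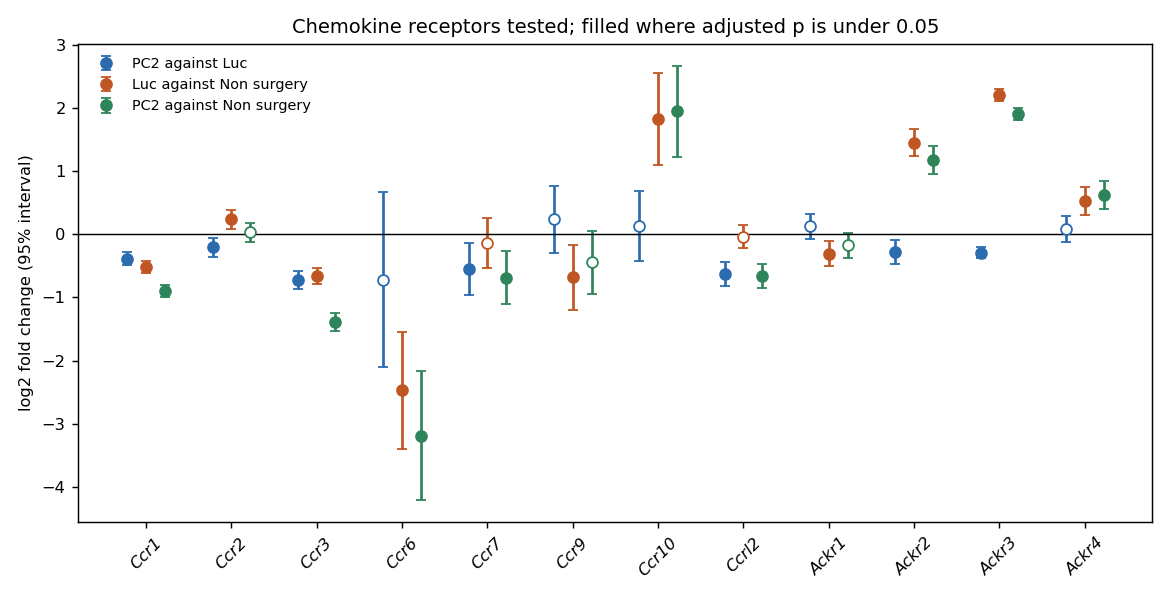
Fitted log2 fold change of the tested CC chemokine receptors and atypical receptors with 95% intervals, for PC2 against Luc, Luc against Non surgery and PC2 against Non surgery, with filled points where the adjusted p was under 0.05. Ccr3 stands at -0.73 for PC2 against Luc and at -0.66 for Luc against Non surgery, while Ccr2 lies within 0.24 of 0 in all 3 comparisons.

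Among the other receptors, Ccrl2 (11.3 ± 0.68 CPM in PC2, 17.4 ± 1.50 CPM in Luc and 17.9 ± 1.41 CPM in Non surgery libraries) and Ccr7, which guides T cells and dendritic cells to lymph nodes, fell in PC2 against Luc libraries (log2 -0.62, adjusted p = 5.19e-05, and -0.55, adjusted p = 0.0408). Ccr6 and Ccr9 fell in Luc against Non surgery libraries (log2 -2.47 and -0.68) and Ccr10 rose (log2 1.82), all 3 at under 4 CPM on average. Ccr6 had 28 to 33 counts per Non surgery library and 4 to 10 per Luc library. Ccr10 had 5 to 10 counts per Non surgery library and 25 to 35 per Luc library. Each passed the filter through the libraries where it was high, so the sizes of these 2 changes are imprecise. The 4 atypical receptors, which bind chemokines without G protein signalling and can remove them, were described beside these. Ackr2, a scavenger of inflammatory CC chemokines, was at 16.6 ± 1.01 CPM in PC2, 20.1 ± 1.70 CPM in Luc and 7.34 ± 1.01 CPM in Non surgery libraries, and fell in PC2 against Luc libraries (log2 -0.27, adjusted p = 0.0265) and rose in Luc against Non surgery libraries (log2 1.45, adjusted p = 2.2e-09). Ackr3, whose ligands are CXC chemokines, was at 119.7 ± 3.07 CPM in PC2, 146.4 ± 2.54 CPM in Luc and 31.8 ± 1.47 CPM in Non surgery libraries, and fell in PC2 against Luc libraries (log2 -0.29, adjusted p = 3.09e-05). Of the 4, Ackr1 and Ackr4 did not pass in PC2 against Luc libraries.

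Of 12 other CC chemokine genes, 6 passed the filter on low counts, and Ccl1 was at 0 in all 9 libraries. In PC2 against Luc libraries 2 of the 6 rose and 3 fell (median log2 fold change -0.59), and in Luc against Non surgery libraries 3 rose and 2 fell (median 0.33). Ccl12, a mouse monocyte chemoattractant and ligand of Ccr2, was at 0.733, 0.761 and 0.577 CPM in PC2 libraries, at 1.98, 2.22 and 1.51 CPM in Luc libraries and at 0.779, 0.403 and 0.300 CPM in Non surgery libraries. It fell in PC2 against Luc libraries (log2 -1.45, adjusted p = 0.00139) and rose in Luc against Non surgery libraries (log2 1.93, adjusted p = 9.39e-05), the same directions as Ccl2, Ccl7 and Ccl8. Counts of Ccl12 per library were 11 to 15 in PC2, 28 to 42 in Luc and 5 to 13 in Non surgery, so its changes are imprecise. Ccl24, the second eotaxin and a ligand of Ccr3, was at 2.83, 3.35 and 3.93 CPM in PC2 libraries, at 1.98, 1.37 and 2.16 CPM in Luc libraries and at 1.02, 0.575 and 0.841 CPM in Non surgery libraries. Unlike Ccl11, it rose in PC2 against Luc libraries (log2 0.88, adjusted p = 0.00574) and in Luc against Non surgery libraries (log2 1.17, adjusted p = 0.00223). Counts of Ccl24 were 26 to 40 per Luc library and 10 to 17 per Non surgery library, so the latter change is imprecise. Ccl22, a ligand of Ccr4, and Ccl28 fell in PC2 against Luc libraries (log2 -1.51, adjusted p = 0.000818, and -1.35, adjusted p = 0.0124). They were at 0.761 and 0.329 CPM in PC2 and 2.18 and 0.847 CPM in Luc libraries. Counts per library were 9 to 21 in PC2 and 36 to 47 in Luc for Ccl22. For Ccl28 they were 5 to 7 and 15 to 18, so both changes are imprecise. Ccl25 rose in PC2 against Luc libraries (log2 0.49, adjusted p = 0.00388) and fell in Luc against Non surgery libraries (log2 -0.50, adjusted p = 0.00172).

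Cytokines and signalling genes linked to the induction of CC chemokines were examined as a list of 23, of which 20 were tested. The list also held brakes on this signalling, such as Tnfaip3. In PC2 against Luc libraries 1 rose and 9 fell (median log2 fold change -0.15), where 34.7% of all tested genes passed. In Luc against Non surgery libraries 13 rose and 2 fell (median 0.25), where 58.8% of all tested genes passed. Il6, which encodes a cytokine that signals through Stat3, fell in PC2 against Luc libraries (log2 -2.19 ± 0.22, adjusted p = 1.11e-06) and rose in Luc against Non surgery libraries (log2 2.78 ± 0.24, adjusted p = 3.88e-08). Il1b, which encodes interleukin-1 beta, an inducer of Ccl2 in synovial fibroblasts and chondrocytes, fell (log2 -1.05 ± 0.06, adjusted p = 5.41e-10) and rose (log2 2.02 ± 0.06, adjusted p = 3.04e-14) in the same comparisons. Tnfaip3, a brake on NF-kB signalling, and the transcription factor gene Irf1 also fell in PC2 against Luc libraries (log2 -0.66, adjusted p = 2.08e-06, and -0.62, adjusted p = 9.94e-08). Il1a fell in Luc against Non surgery libraries (log2 -1.73, adjusted p = 3.14e-07), while Il33 rose (log2 1.46, adjusted p = 7.67e-09). Tnf fell in both operated groups against Non surgery libraries (log2 -0.62 in PC2, adjusted p = 0.00064, and -0.71 in Luc, adjusted p = 0.000251), and its log2 fold change in PC2 against Luc libraries was 0.083 (adjusted p = 0.690). Levels of Il6, Il1a and Tnf were low. Il6 was at 5.45 CPM in Luc and 0.786 CPM in Non surgery libraries on average. Il1a was at 1.90 and 6.32 CPM and Tnf at 3.48 and 5.68 CPM, in the same order. The sizes of these changes are therefore imprecise.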

How the data were processed

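Each library had its own table of raw counts per Ensembl gene ID, as deposited by the authors, whose processing notes name HISAT2, HTSeq, DESeq2 and the mm10 build without versions or roles. Per the labels' protocols, TRIzol and the NEBNext Ultra RNA kit were used, and a mixture of RNA per group was sequenced as technical repeats. The annotation release and the strand setting are not given in the sources used here. Library sizes left out the 5 summary lines of each table. Reads outside annotated genes were 7.29% to 9.25% and reads that fitted several genes 5.72% to 6.65%. Symbols and coordinates came from GENCODE M21 (GRCm38), which held 53274 of 53379 gene IDs, and promoters from RefSeq (GRCm38.p6).

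All 9 libraries entered a single edgeR fit (version 4.0.16, R 4.3.3) with TMM factors, filterByExpr at a minimum count of 10 and a group factor. The quasi-likelihood tests were two-sided, with Benjamini-Hochberg adjustment over 17478 genes. The SE of a log2 fold change is its absolute value divided by the square root of F. DESeq2 1.42.0, other scalings, no filter, fewer libraries, a replicate block and a 2-fold limit were alternatives. Pairs of libraries within a group differed by more than counting noise (chi-square per degree of freedom 3.94 to 8.67), so each counted once. The fit was tested on simulated data. The members and gene lists were chosen with earlier results of these data known. Named genes are the 9 members, up to 4 called genes per list and comparison with the largest change, and the 3 genes closest to each member; others are said to be chosen after their values were seen. Intervals and p-values cover technical error only. A gene of the receptor list is not reported here and is left out of its counts.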

Additional observations from a re-analysis of the deposited data

How the results depend on the processing

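No CC chemokine gene changed direction among the differences that were called, over 9 kinds of alternative. Of the values of single genes under alternatives, 112 stayed on the same side of the threshold and 5 were no longer past it for Luc against Non surgery, 114 and 3 for PC2 against Luc, and 115 and 2 for PC2 against Non surgery. Among differences not called, the log2 fold change of Ccl4 (-0.18 to 0.16) and Ccl5 (-0.17 to 0.13) in Luc against Non surgery libraries and of Ccl11 (-0.066 to 0.31) in PC2 against Luc libraries took either sign over the alternatives. The calls that were lost, of Ccl3, Ccl5 and Ccl9, are given with the results. Asking for a fold change of at least 2 left 2 members for PC2 against Luc, 3 for Luc against Non surgery and 4 for PC2 against Non surgery, and 578, 2752 and 2860 of all genes. Leaving out each replicate in turn gave 6 to 7, 6 to 7 and 9 members, and 4921 to 5328, 9552 to 9880 and 10239 to 10672 of all genes, in the same order. Same-numbered libraries of different groups did not deviate together (r = -0.16 to 0.17 over 9 pairs, against -0.17 to 0.19 over 18 other pairs), so the samples share only a number. With the replicate number as a block, 7, 7 and 9 members and 6192, 10327 and 11019 of all genes were called. Counting noise limits the lowest levels, with 13 to 32 counts of Ccl2, Ccl7 and Ccl8 per Non surgery library. The pools hold no spread between mice, and no alternative can supply it.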

Other observations

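Transcripts of many cytokines carry ATTTA elements in the 3′ untranslated region, to which tristetraprolin (Zfp36) and its relatives bind and speed up decay. Among the 9 CC chemokines, Ccl3, Ccl9 and Ccl11 held 5 such pentamers each, Ccl6 held 4, Ccl4 and Ccl7 held 2 each, Ccl2 held 1, and Ccl5 and Ccl8 held 0. For Ccl3, with 409 bases, 1.94% of genes with a region between 0.5 and 2 times that length held as many, and for Ccl11, with 644 bases, 5.88% did, while for Ccl9, with 2465 bases, 42.4% did. Of 6 decay factors, 1 rose and 3 fell in PC2 against Luc libraries, where 34.7% of all tested genes passed. In Luc against Non surgery libraries 5 rose and 0 fell, where 58.8% of all tested genes passed. Zfp36 fell in PC2 against Luc libraries (log2 -0.63 ± 0.03, adjusted p = 3.91e-10) and rose in Luc against Non surgery libraries (log2 2.26 ± 0.03, adjusted p = 7.48e-18). Zc3h12a, which encodes the ribonuclease Regnase-1, fell in PC2 against Luc libraries (log2 -0.38, adjusted p = 0.0013).

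Of 8 genes for matrix binding and cleavage of chemokines, 0 rose and 7 fell in PC2 against Luc libraries (median log2 fold change -0.32). In Luc against Non surgery libraries 7 rose and 0 fell (median 0.99). Of all tested genes, 34.7% and 58.8% passed in these 2 comparisons. Mmp12, a macrophage metalloproteinase known to cleave monocyte chemoattractants, fell in PC2 against Luc libraries (log2 -1.79 ± 0.14, adjusted p = 1.03e-07), while in Luc against Non surgery libraries its log2 fold change was -0.16 (adjusted p = 0.282). Mmp2, whose human counterpart cleaves CCL7, fell in PC2 against Luc libraries (log2 -0.40, adjusted p = 1.51e-06) and rose in Luc against Non surgery libraries (log2 1.93, adjusted p = 6.68e-16). Sdc1 and Sdc4, heparan sulfate proteoglycans of the cell surface, rose in Luc against Non surgery libraries (log2 1.39, adjusted p = 7.04e-13, and 1.20, adjusted p = 1.48e-12).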
